A study of Bos taurus with 6 samples.

Results

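PAX5, EBF1, SPIB and POU2AF1 are transcription regulators that define the B lymphocyte. They were taken by their symbols from the deposited table, which held all 4 among its 2040 gene names. The table compares samples labelled as longissimus dorsi, a long back muscle, between Angus and Chinese Simmental cattle, with 3 libraries per breed. By the labels the tissue came from ribs 12 and 13 at an age of 18 months. Whether each sample is a separate animal is not stated there, so a p-value measures the spread between samples, which may be technical. Angus is a beef breed of Scottish origin. The breeds carry no treatment, and all samples share the tissue, the age and Trizol extraction after freezing.

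A B cell is built by a short chain of regulators. EBF1, early B cell factor 1, acts with E proteins to open B lineage genes in lymphoid progenitors, and it activates PAX5. PAX5, a paired box factor, then holds the cell to the lineage by switching on genes such as CD79A and, in mouse, by shutting off genes of other blood lineages. SPIB, an ETS factor related to PU.1, acts later in B cells and in plasmacytoid dendritic cells, and POU2AF1 (OCA-B) is a coactivator that joins the octamer-binding factors POU2F1 and POU2F2 on B cell promoters. EBF1 is not exclusive to B cells, being active as well in fat cell precursors and in the mural cells of blood vessels.

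The deposited domain annotation named a paired box in PAX5, a COE1 DNA-binding domain with an IPT/TIG and a helix-loop-helix domain in EBF1, an Ets-domain in SPIB and the POU class 2 associating factor domain in POU2AF1. Its best protein match was to a paralog for 3 of the 4 genes, PAX8 for PAX5, EBF2 for EBF1 and SPI1 for SPIB. No source used here states how reads shared with paralogs were counted. Of these paralogs PAX8 and SPI1 were in the table, and both were higher in Chinese Simmental.

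Every gene in the table had passed the submitters' own selection, since the smallest absolute log2 fold change in the authors' deposited table was 1.00 and the largest adjusted p was 0.0492. A breed difference in any listed gene was therefore set by that choice, and the tests of single genes below describe it and are not independent evidence. Counts over the listed genes summed to between 12010803 and 15699184 per Angus library and to between 12799174 and 28883725 per Chinese Simmental library. The full depth of the libraries is unknown here. Of all listed genes, 75.0% were past the threshold as higher in Chinese Simmental and 24.9% as higher in Angus (edgeR quasi-likelihood test, Benjamini-Hochberg adjusted p under 0.05, 1989 genes tested). Scaled counts below are reads divided by the authors' size factors, and each log2 fold change is that of Angus over Chinese Simmental, with its standard error.

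All 4 B cell factors were higher in Angus, by 2.78-fold to 4.81-fold in scaled counts, against a background of 24.9% of listed genes called in that direction. In each of them every Angus library lay above every Chinese Simmental library, as was the case for 24.4% of all listed genes. Those were 497 of the 509 names higher in Angus, so nearly every such name shared this separation and it does not mark out the 4 factors. SPIB differed most and POU2AF1 least. The higher values in Angus could come from more B cells there or from more of this RNA per B cell, among other sources. These cannot be told apart in bulk tissue, and none was tested.

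**Figure D1:**
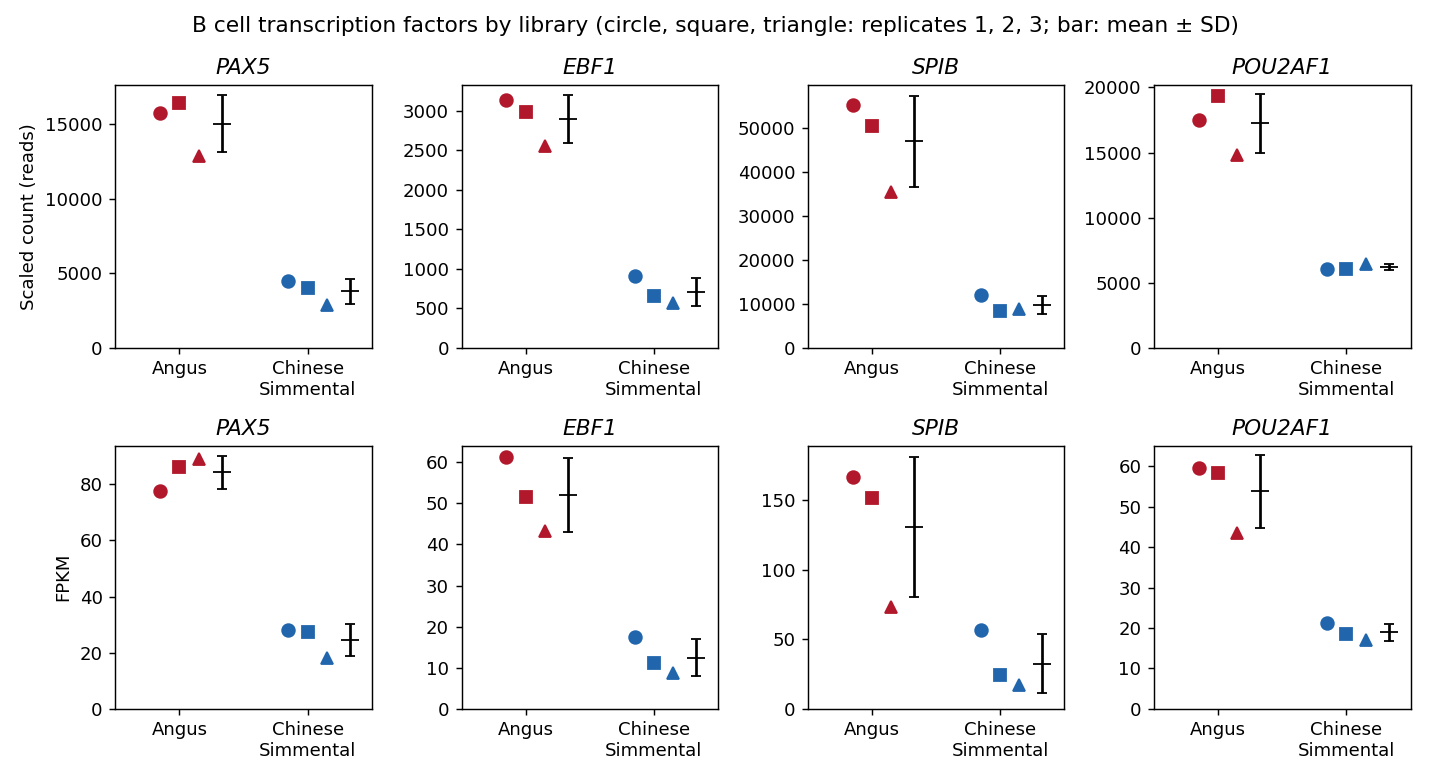
Scaled counts (upper row, reads divided by the authors' size factors) and FPKM (lower row) of PAX5, EBF1, SPIB and POU2AF1 in Angus (red, left) and Chinese Simmental (blue, right) libraries; circles, squares and triangles are replicates 1, 2 and 3, and the bar is the mean ± SD of 3 libraries. The breeds are separated in all 8 panels, most narrowly for SPIB in FPKM.

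EBF1, the earliest factor of the chain, had 3138, 2982 and 2557 scaled counts in Angus replicates 1 to 3, against 908, 659 and 564 in Chinese Simmental replicates 1 to 3. The Angus libraries lay close together, with a coefficient of variation of 10.4%, against 25.0% in Chinese Simmental, and replicate 3 was the lowest library of each breed. The means were 2892 ± 301 in Angus and 711 ± 178 in Chinese Simmental (SD, n = 3 each), a 4.07-fold difference. The log2 fold change was 2.03 ± 0.37, with an adjusted p of 0.00365 by edgeR's quasi-likelihood test. EBF1 had the fewest reads of the 4 factors, down to 581 raw counts in Chinese Simmental replicate 3, which is well above the count filter.

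PAX5, the commitment factor, had 15741, 16425 and 12847 scaled counts in Angus replicates 1 to 3, against 4493, 4021 and 2862 in Chinese Simmental replicates 1 to 3. Replicate 3 was again the lowest library of each breed, and the lowest Angus library still held 2.86 times the reads of the highest Chinese Simmental library. Mean scaled counts were 15004 ± 1899 in Angus and 3792 ± 839 in Chinese Simmental (SD, n = 3 each), 3.96-fold apart. The log2 fold change was 1.98 ± 0.36 (edgeR quasi-likelihood test, adjusted p = 0.00355), almost the same as that of EBF1.

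SPIB was the most abundant of the 4 in reads, with 55198, 50403 and 35409 scaled counts in Angus replicates 1 to 3, against 12068, 8445 and 8819 in Chinese Simmental replicates 1 to 3. Angus replicate 3 stood below the other Angus libraries, and Chinese Simmental replicate 1 above the others of its breed, without the breeds meeting. The means were 47003 ± 10323 in Angus and 9777 ± 1993 in Chinese Simmental (SD, n = 3 each), 4.81-fold apart. Its log2 fold change of 2.27 ± 0.39 (edgeR quasi-likelihood test, adjusted p = 0.00351) ranked 99 among the 497 tested genes higher in Angus.

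POU2AF1, the octamer coactivator, had 17510, 19367 and 14833 scaled counts in Angus replicates 1 to 3, against 6067, 6093 and 6443 in Chinese Simmental replicates 1 to 3. The 3 Chinese Simmental libraries were nearly equal, with a coefficient of variation of 3.39%, where PAX5, EBF1 and SPIB varied by 20.4% to 25.0% in the same libraries. Chinese Simmental replicate 3, the lowest library of its breed for PAX5 and EBF1, was the highest for POU2AF1. Mean scaled counts were 17237 ± 2279 in Angus and 6201 ± 210 in Chinese Simmental (SD, n = 3 each). The difference was 2.78-fold, at a log2 fold change of 1.47 ± 0.34 (edgeR quasi-likelihood test, adjusted p = 0.00597), which ranked 287 among the 497 tested genes higher in Angus. The median log2 fold change of the 495 genes called higher in Angus was 1.60, so POU2AF1 lay below it and PAX5, EBF1 and SPIB above it.

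In the authors' deposited table the log2 fold changes, given there as Chinese Simmental over Angus, were -1.94 for PAX5, -1.98 for EBF1, -2.21 for SPIB and -1.45 for POU2AF1. The deposited adjusted p ran from 1.66e-13 for SPIB to 1.64e-10 for POU2AF1. That table puts Angus in the denominator, hence the negative sign.

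In FPKM, PAX5 stood above EBF1 and POU2AF1 in every library, and SPIB stood above them with 1 exception. In raw counts PAX5 was instead below POU2AF1 in every library. The order of genes thus depends on the unit, and the sources used here do not give the lengths behind the FPKM. PAX5 averaged 84.3 ± 5.88 FPKM in Angus and 24.5 ± 5.61 FPKM in Chinese Simmental (SD, n = 3 each). SPIB averaged 130 ± 50.3 FPKM in Angus and 32.4 ± 21.1 FPKM in Chinese Simmental, with a wider spread than any other of the 4. POU2AF1 averaged 53.9 ± 8.99 FPKM in Angus and 18.9 ± 2.09 FPKM in Chinese Simmental, and EBF1 52.1 ± 9.06 FPKM in Angus and 12.4 ± 4.47 FPKM in Chinese Simmental. PAX5 was above EBF1 and above POU2AF1 in 6 of 6 libraries, and SPIB above EBF1 in 6 of 6. SPIB was above POU2AF1 in 5 of 6, the exception being Chinese Simmental replicate 3, at 16.8 FPKM for SPIB and 17.1 FPKM for POU2AF1. The order of PAX5 and SPIB was not fixed, since PAX5 was the higher of them in 3 of 6 libraries. EBF1 and POU2AF1 were within their spread of each other in Angus, and POU2AF1 was the higher of them in all 3 Chinese Simmental libraries.

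The breeds were separated in FPKM too, as they were toward Angus for 22.5% of listed genes. Those were 460 genes, beside 509 names higher in Angus. The margin of SPIB was narrow there. SPIB had 167, 151 and 72.8 FPKM in Angus replicates 1 to 3, against 56.4, 23.9 and 16.8 FPKM in Chinese Simmental replicates 1 to 3. The lowest Angus library exceeded the highest Chinese Simmental library by 1.29-fold in FPKM, but by 2.93-fold in scaled counts. PAX5 had 77.7, 86.3 and 89.0 FPKM in Angus replicates 1 to 3, against 27.9, 27.5 and 18.0 FPKM in Chinese Simmental replicates 1 to 3. Angus replicate 3 was thus the lowest Angus library for PAX5 in scaled counts and the highest in FPKM.

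The number of reads behind 1 unit of FPKM was not constant across libraries for PAX5 and SPIB. Counts per FPKM, relative to the median of 1487 well-covered genes in the same library, were 2.02, 1.65 and 1.23 for PAX5 in Angus replicates 1 to 3, against 1.67, 1.29 and 1.19 in Chinese Simmental replicates 1 to 3. For SPIB they were 3.30, 2.89 and 4.15 in Angus replicates 1 to 3, against 2.21, 3.13 and 3.91 in Chinese Simmental replicates 1 to 3. Replicate 1 was the highest of both breeds for PAX5, and replicate 3 the highest of both breeds for SPIB. The SD of the log2 value over the 6 libraries was 0.30 for PAX5 and 0.33 for SPIB, above 90.9% and 92.2% of the well-covered genes. It was 0.06 for EBF1 and 0.02 for POU2AF1. The sources used here give neither the lengths and isoforms behind the FPKM nor whether both units rest on one assignment of reads, and the cause was not tested.

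**Figure D2:**
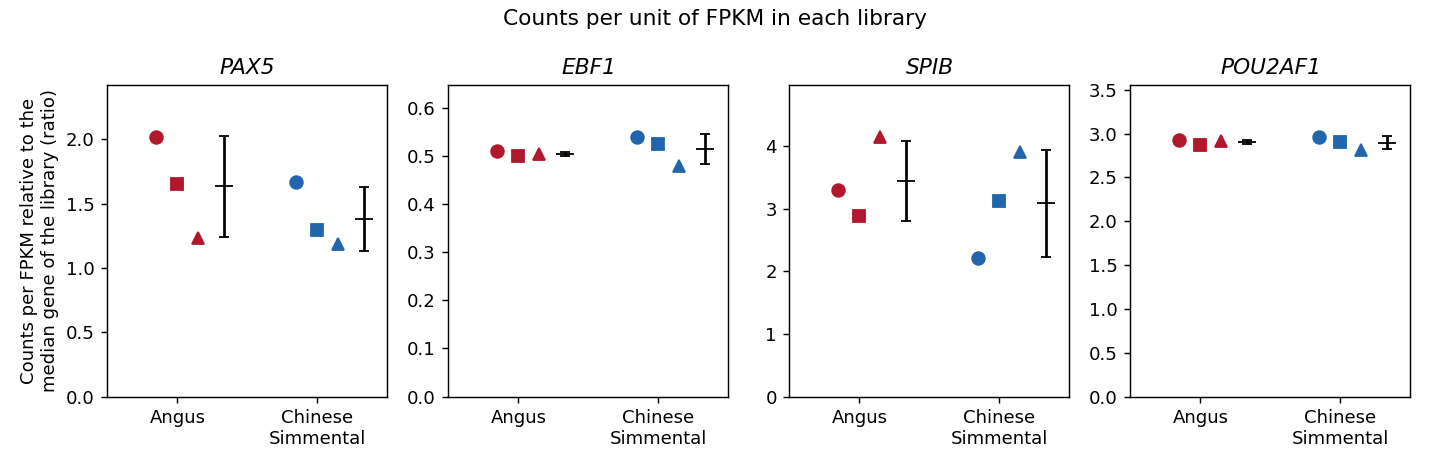
Counts per unit of FPKM, relative to the median gene of the library, for the 4 B cell factors in Angus (red, left) and Chinese Simmental (blue, right); circles, squares and triangles are replicates 1, 2 and 3, and the bar is the mean ± SD of 3 libraries. EBF1 and POU2AF1 are flat across libraries, whereas PAX5 ranges 1.70-fold and SPIB 1.88-fold.

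The 4 factors were next set against 3 surface genes of the same cell type, which needs no scaling between libraries. CD79A and CD79B are the signalling chains of the B cell receptor and MS4A1 encodes CD20. The log2 ratio of the PAX5 count to their mean was -1.62 ± 0.11 in Angus and -1.56 ± 0.17 in Chinese Simmental (SD, n = 3 each), a difference of -0.07 (exact two-sided permutation test, p = 0.7). For EBF1 it was -4.00 ± 0.18 in Angus and -3.98 ± 0.02 in Chinese Simmental, a difference of -0.02 (exact permutation p = 1.0). For SPIB it was 0.01 ± 0.23 in Angus and -0.18 ± 0.17 in Chinese Simmental, a difference of 0.19 (exact permutation p = 0.3). The libraries of the breeds overlapped for these 3 factors, whose difference from the 3-gene mean was close to or below the spread between replicates. That result depends on the gene in the denominator. With CD79A alone the ratios of PAX5 and SPIB were higher in Angus by 0.23 and 0.49 without overlap, and with MS4A1 alone that of SPIB by 0.27 without overlap (exact permutation p = 0.1 for each). With CD79B alone the differences of PAX5, EBF1 and SPIB were -0.45, -0.40 and -0.195, with overlapping breeds. Because CD79A, CD79B and MS4A1 were themselves selected as different between breeds, a small difference in ratio says only that factor and surface genes differed to a like extent.

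POU2AF1 was the one factor whose ratio to the 3-gene mean kept the breeds apart. Its log2 ratio to the surface genes was -1.39, -1.51 and -1.38 in Angus replicates 1 to 3, against -1.26, -0.76 and -0.44 in Chinese Simmental replicates 1 to 3. Every Angus library lay below every Chinese Simmental library, though Chinese Simmental replicate 1 was near the Angus values. The mean difference of -0.60 is a ratio 0.659 times as high in Angus, with an exact two-sided permutation p of 0.1 and an adjusted p of 0.4 over the 4 factors. A p of 0.1 is the smallest that 3 libraries against 3 can give, so no ratio could pass the threshold. With CD79B alone the difference was -0.99 and with MS4A1 alone -0.52, both without overlap, whereas with CD79A alone it was -0.30 and the breeds overlapped (exact permutation p = 0.3).

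**Figure D3:**
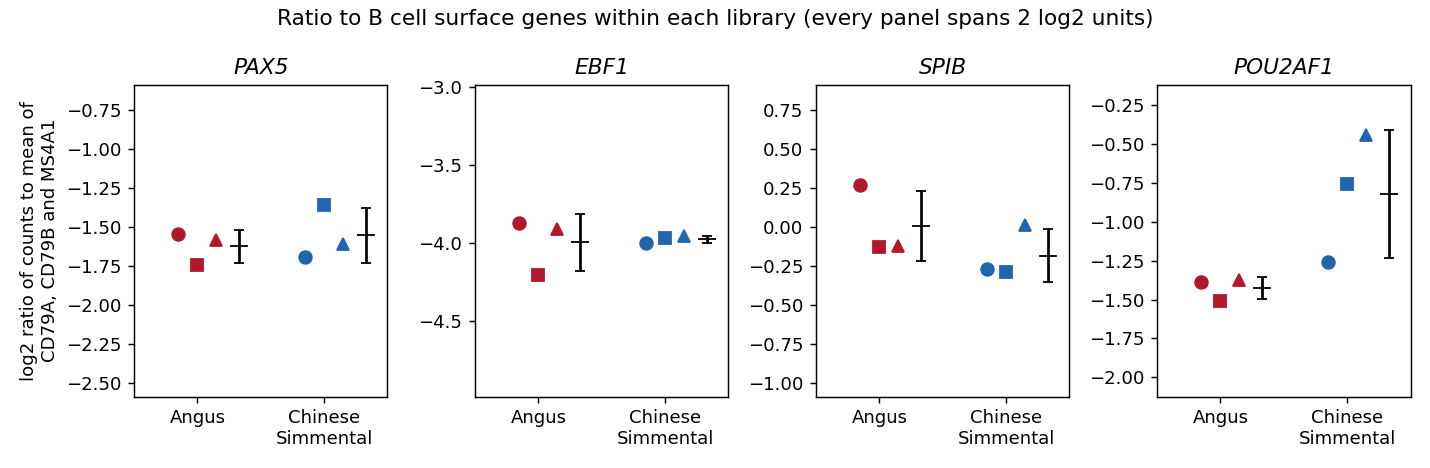
log2 ratio of each B cell factor's count to the mean of CD79A, CD79B and MS4A1 within the library, in Angus (red, left) and Chinese Simmental (blue, right); circles, squares and triangles are replicates 1, 2 and 3, the bar is the mean ± SD of 3 libraries, and every panel spans the same range. The breeds overlap for PAX5, EBF1 and SPIB, and POU2AF1 is lower in all 3 Angus libraries.

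The 6 ratios between the factors gave the same grouping. Their mean differences follow by subtraction from those of the ratios to the surface genes, so this is not separate evidence. PAX5 to EBF1 was the steadiest, at a log2 count ratio of 2.37 ± 0.08 in Angus and 2.42 ± 0.17 in Chinese Simmental (SD, n = 3 each; exact permutation p = 0.8). The ratios of PAX5 and EBF1 to SPIB differed by -0.26 and -0.21, with overlapping breeds. The 3 ratios to POU2AF1 were the only ones without overlap, all higher in Angus, by 0.53 for PAX5, 0.58 for EBF1 and 0.79 for SPIB (exact permutation p = 0.1 and adjusted p = 0.2 for each over 6 pairs). In FPKM the differences were 0.31, 0.61 and 0.61, and only that of EBF1 kept the breeds apart.

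Library by library, PAX5 and EBF1 were each other's closest match in the table. Likeness was measured as the root mean square distance between log2 scaled counts, centred over the 6 libraries, among 1638 genes with a symbol, so that genes with a like breed difference come near. EBF1 lay at 0.108 from PAX5, ahead of CD79A at 0.140 and VAV2, an exchange factor of antigen receptor signalling, at 0.141. After PAX5, EBF1 was closest to MS4A1 at 0.130. SPIB was closest to BOLA-DRB2, an MHC class II chain whose level is uncertain in this polymorphic family, at 0.142, then to BCL11A, a zinc finger factor of lymphoid development, at 0.154 and MS4A1 at 0.159. POU2AF1 was closest to C29H11orf54, ZCCHC11 and HABP4, at 0.112 to 0.116, and the other B cell factors ranked 165 to 236 in its order. These distances describe 6 libraries and carry no test.

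Among other regulators of the B lineage, direction was split. Of 28 listed for this comparison, 8 were in the table, of which 5 were called toward Angus and 3 toward Chinese Simmental, beside the 24.9% and 75.0% of all listed genes called in those directions. Their median log2 fold change was 1.12, where that of all tested genes was -1.57. The 20 others were not analysed here. BCL11A differed most toward Angus, with 5013, 5088 and 3233 scaled counts in Angus replicates 1 to 3, against 1356, 979 and 780 in Chinese Simmental replicates 1 to 3 (log2 fold change 2.10 ± 0.39). TCF4, an E protein of the same family as E2A, was 2.81-fold higher in Angus, at 5702 ± 1559 against 2030 ± 212 in Chinese Simmental.

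IRF4, a factor of activated B cells and plasma cells, was 2.24-fold higher in Angus, at 8648 ± 1533 against 3869 ± 275 in Chinese Simmental. POU2F2 (OCT2), the DNA-binding partner of POU2AF1, had 36913, 34405 and 23331 scaled counts in Angus replicates 1 to 3, against 19406, 11938 and 13190 in Chinese Simmental replicates 1 to 3. Angus replicate 3 was only a little above Chinese Simmental replicate 1. The log2 fold change of POU2F2 was 1.09 ± 0.39 on counts but 0.69 on log2(FPKM + 1), where limma gave an adjusted p of 0.224. CIITA, which switches on MHC class II genes, was 2.68-fold higher in Angus, at 18874 ± 6305 against 7031 ± 3938 in Chinese Simmental. Without Angus replicate 2 the calls for CIITA, IRF4 and POU2F2 were lost and 2 of the 5 were left. Without Chinese Simmental replicate 2 or 3, those for CIITA and POU2F2 were lost and 3 were left.

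**Figure D4:**
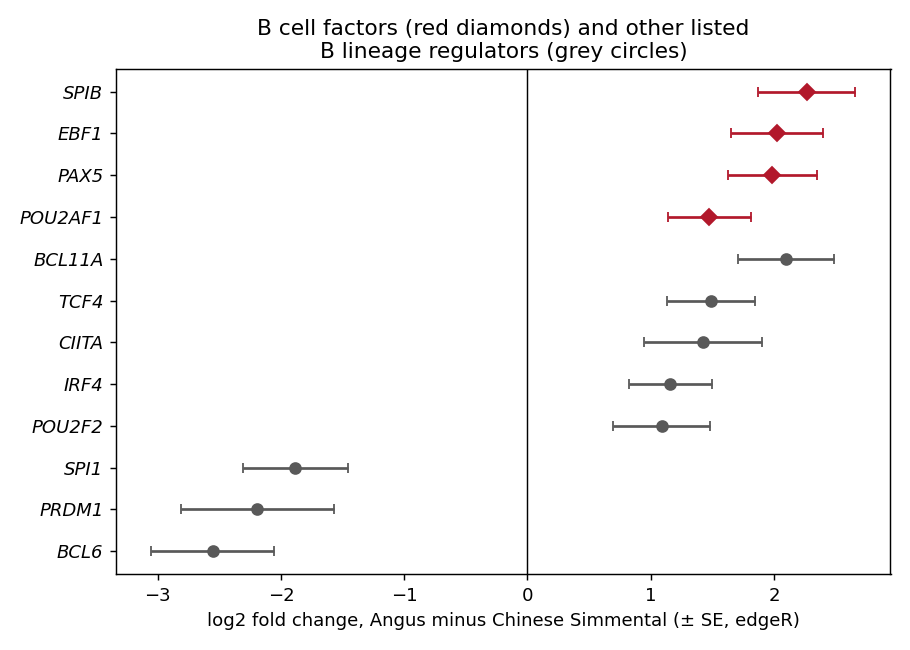
log2 fold change, Angus minus Chinese Simmental, ± standard error (edgeR), of the 4 B cell factors (red diamonds) and of the 8 other B lineage regulators in the table (grey circles). SPIB, EBF1, PAX5 and POU2AF1 lie between 1.47 and 2.27, 5 other regulators lie to the right of 0, and SPI1, PRDM1 and BCL6 lie to the left.

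The 3 regulators that were higher in Chinese Simmental were BCL6, PRDM1 and SPI1. BCL6, the repressor of the germinal centre B cell that is also active in myeloid cells, had 2077, 2498 and 3206 scaled counts in Angus replicates 1 to 3, against 6603, 23021 and 16103 in Chinese Simmental replicates 1 to 3 (log2 fold change -2.55 ± 0.50). PRDM1 (BLIMP-1), which ends the B cell programme in plasma cells, had 850, 1101 and 1112 in Angus replicates 1 to 3, against 1017, 6217 and 6754 in Chinese Simmental replicates 1 to 3. The breeds overlapped for PRDM1, since Chinese Simmental replicate 1 lay within the Angus range. SPI1 (PU.1), shared by B cells and myeloid cells, was 3.69-fold higher in Chinese Simmental, at 15939 ± 4067 in Angus against 58778 ± 17003 in Chinese Simmental. With TMM factors computed over the listed genes these 3 kept their direction but lost their call. Their log2 fold changes were then -1.17, -0.72 and -0.51 for BCL6, PRDM1 and SPI1. Factors computed over a selected table can centre its fold changes, and 75.0% of listed genes were called toward Chinese Simmental. With library totals from counts over FPKM the 3 kept their call, at -2.49, -2.07 and -1.79 in the same order. PRDM1 was short of the threshold on log2(FPKM + 1), at -1.09 with an adjusted p of 0.0535 by limma.

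Myeloid genes in the table had the same breed direction as these 3 regulators. Of 18 myeloid genes 13 were in the table and all 13 were called higher in Chinese Simmental, where 75.0% of listed genes were called in that direction, with scaled counts that summed to 72577 to 116682 per Angus library, against 759631 to 1425791 per Chinese Simmental library. Their part in the values of BCL6, PRDM1 and SPI1 was not tested.

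Ratios between regulators were taken for 2 pairs, which were chosen after their values were seen and carry no test. Each pair sets a gene selected as higher in Angus over one selected as higher in Chinese Simmental. That selection fixed the direction of the mean difference in advance. Whether the RNAs of a pair come from the same cells was not tested. SPIB and SPI1 are ETS factors of one subfamily, and the FPKM of SPIB over that of SPI1 was 5.64, 11.1 and 4.16 in Angus replicates 1 to 3, against 1.11, 0.284 and 0.200 in Chinese Simmental replicates 1 to 3. SPIB was above SPI1 in all Angus libraries and below it in Chinese Simmental replicates 2 and 3. PAX5 and PRDM1 oppose each other in mouse B cells, and the FPKM of PAX5 over that of PRDM1 was 11.3, 11.2 and 11.4 in Angus replicates 1 to 3, against 3.26, 0.967 and 0.903 in Chinese Simmental replicates 1 to 3. Both ratios were higher in each Angus library than in any Chinese Simmental library, and Chinese Simmental replicate 1 was the closest to Angus in both. As count ratios, which are not corrected for length, SPIB over SPI1 was 2.78, 4.30 and 2.17 in Angus replicates 1 to 3, against 0.302, 0.133 and 0.121 in Chinese Simmental replicates 1 to 3. PAX5 over PRDM1 in counts was 18.5, 14.9 and 11.5 in Angus replicates 1 to 3, against 4.42, 0.647 and 0.424 in Chinese Simmental replicates 1 to 3. The near-equal Angus values of PAX5 over PRDM1 in FPKM were thus not seen in counts.

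**Figure D5:**
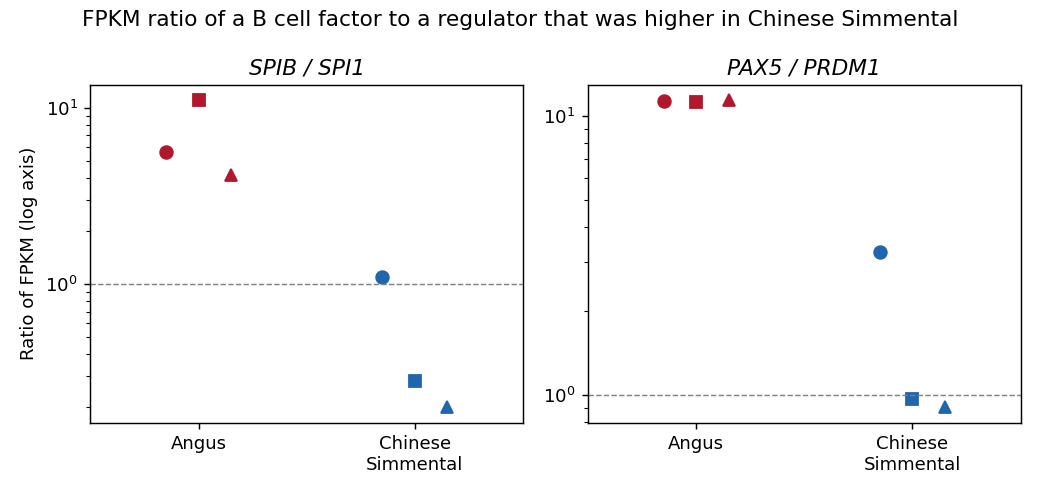
FPKM of SPIB over that of SPI1 (left) and of PAX5 over that of PRDM1 (right), on log axes, in Angus (red, left) and Chinese Simmental (blue, right) libraries; circles, squares and triangles are replicates 1, 2 and 3, and the dashed line marks equal FPKM. All Angus libraries lie above 4, and Chinese Simmental libraries lie between 0.200 and 3.26.

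Genes that PAX5 or EBF1 control in mouse B cells were looked up by the sense of that control. The submitters' selection gave every listed gene a direction, so the counts are a description, and control by PAX5 or EBF1 was not tested. Of 14 genes known to be activated, 7 were in the table and all 7 were called higher in Angus, beside 24.9% of all listed genes, with a median log2 fold change of 1.72. BLNK, the adaptor behind the B cell receptor, was 3.27-fold higher in Angus and CR2, the complement receptor of B cells, 3.28-fold. Of 10 genes that PAX5 represses in mouse, 4 were in the table and all 4 were called higher in Chinese Simmental, beside 75.0% of all listed genes, with a median of -2.01. They were FCER1G, an Fc receptor chain, at -2.14 ± 0.37, PRDM1 at -2.19 ± 0.62, CSF1R, a growth factor receptor of macrophages, at -1.89 ± 0.55, and NOTCH1 at -1.12 ± 0.38. TMM factors over the listed genes moved all fold changes toward Angus by a median of 1.35. With them FCER1G alone of the 4 kept its call (-0.79, edgeR adjusted p = 0.0453), CSF1R (-0.59, adjusted p = 0.434) and PRDM1 (-0.72, adjusted p = 0.35) lost it, and NOTCH1 changed direction (0.25). CSF1R and FCER1G are also myeloid genes, and the share of myeloid RNA in their difference was not tested.

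Of 36 genes of the B cell receptor and surface, 22 were in the table, of which 21 were called higher in Angus, beside 24.9% of all listed genes, and 1, CD24, higher in Chinese Simmental. Without Angus replicate 2, 17 of them were called. Their median log2 fold change was 1.77. PAX5, EBF1 and SPIB lay above it and POU2AF1 below it. CD24, a surface glycoprotein of immature B cells and also of neutrophils, had 1067, 2460 and 2836 scaled counts in Angus replicates 1 to 3, against 4976, 10825 and 21704 in Chinese Simmental replicates 1 to 3. With TMM factors over the listed genes CD24 lost its call, at -1.06 (edgeR adjusted p = 0.114).

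Other sources of the 4 factors were looked up in marker lists. For plasmacytoid dendritic cells, which use SPIB, TCF4 and BCL11A were higher in Angus, and IL3RA and LILRA4, the receptors that mark these cells, were lower in Angus, with log2 fold changes of -1.61 ± 0.59 for IL3RA and -2.55 ± 0.78 for LILRA4. The call for IL3RA was lost without Chinese Simmental replicate 1 (-0.69, edgeR adjusted p = 0.136), without Angus replicate 2 (-1.67, adjusted p = 0.0548) and without Angus replicate 3 (-1.50, adjusted p = 0.0719). The breeds overlapped for LILRA4, which was at -3.44 without Angus replicate 1 and at -2.14 without Chinese Simmental replicate 1. LILRA4 shares its counts with 5 other listed names, so its level is uncertain. Both receptors lost their call with TMM factors, at -0.44 for IL3RA (edgeR adjusted p = 0.687) and -1.27 for LILRA4 (adjusted p = 0.233). On log2(FPKM + 1) they were short of the threshold too, at -0.85 (limma adjusted p = 0.146) and -2.38 (adjusted p = 0.0642). For mural cells, fibroblasts and fat cells, in which EBF1 is active, 2 of 20 genes were in the table, PDGFRA higher in Angus at 498 ± 455 against 139 ± 66.8 in Chinese Simmental, and CEBPA higher in Chinese Simmental at 187 ± 114 in Angus against 1384 ± 1056 in Chinese Simmental. PDGFRA rested on Angus replicate 1, at 1023 scaled counts, which when left out gave a log2 fold change of 0.76 in place of 1.84. The call for PDGFRA was lost there and without Chinese Simmental replicate 1 (1.83) or 2 (1.54). It was also lost on log2(FPKM + 1), at 1.08 (limma adjusted p = 0.12). CEBPA lost its call with TMM factors, at -1.42 (edgeR adjusted p = 0.0986).

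Of 9 plasma cell genes 4 were in the table, with DERL3, an endoplasmic reticulum protein, and IRF4 higher in Angus, and PRDM1 and FKBP11 higher in Chinese Simmental. Of 11 germinal centre genes 4 were listed, with ELL3, LMO2 and NUGGC higher in Angus, beside 24.9% of all listed genes, and BCL6 higher in Chinese Simmental. The breeds overlapped in FPKM for LMO2 and NUGGC, and LMO2 lost its call on log2(FPKM + 1) (1.02, limma adjusted p = 0.143). NUGGC lost its call without Angus replicate 1 or 2 or Chinese Simmental replicate 2 or 3 (edgeR adjusted p from 0.0508 to 0.0838). None of 19 T cell genes was in the table, and their levels were not analysed here. Of 8 neutrophil genes 5 were listed, all higher in Chinese Simmental, with scaled counts that summed to 996 to 8499 per Angus library, against 24751 to 119006 per Chinese Simmental library. Of 12 natural killer and cytotoxic genes 5 were listed, again all higher in Chinese Simmental, at a median log2 fold change of -1.27, and PRF1 and NCR1 among them changed direction with TMM factors (0.17 and 0.19). The background in that direction was 75.0%. Of 10 genes of lymphoid stroma 3 were listed, with CR2 higher in Angus, and TNFSF13B (BAFF, a B cell survival factor) and LTBR (a lymphotoxin receptor) higher in Chinese Simmental. GP9, a platelet glycoprotein, was the one listed gene of 12 for red cells and platelets, higher in Chinese Simmental with overlapping breeds. Of 19 paralogs and partners of the factors 5 were listed, with PAX9 and POU2F2 higher in Angus, and PAX8, SPI1 and TLE3, a corepressor, higher in Chinese Simmental, of which TLE3 changed direction with TMM factors (0.18). The part of these other cell types in the values of the 4 factors was not tested.

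The labelled tissue had 3 of 20 skeletal muscle genes in the table, namely TNNT3, NEB and RYR1. TNNT3, a troponin of fast fibres, had 3.89, 10.7 and 6.57 FPKM in Angus replicates 1 to 3, against 2.87, 0.822 and 0.706 FPKM in Chinese Simmental replicates 1 to 3. NEB, the giant filament protein nebulin, was also higher in Angus, at a mean of 2.63 FPKM against 0.729 FPKM in Chinese Simmental. RYR1, the calcium release channel of muscle, ran the other way, with 5.08, 1.15 and 2.83 FPKM in Angus replicates 1 to 3, against 17.2, 43.2 and 16.3 FPKM in Chinese Simmental replicates 1 to 3 (log2 fold change -3.28 ± 0.61). In Chinese Simmental replicate 2 RYR1 was above all 4 B cell factors in FPKM, and in no other library was a listed muscle gene above all 4. TNNT3 and NEB were below all 4 factors in every library, and RYR1 was below all 4 in each Angus library. The myeloid genes S100A8 and S100A9 averaged 146 and 110 FPKM in Angus, and 1776 and 1696 FPKM in Chinese Simmental. CD163 and TLR4, also myeloid, averaged 16.9 and 1.71 FPKM in Angus, and 319 and 13.0 FPKM in Chinese Simmental. What these levels say of the cells in the samples was not tested. The muscle genes outside the table were not analysed here.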

How the data were processed

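RNA from 6 longissimus dorsi samples, 3 per breed as the titles give it, was sequenced after Illumina mRNA library preparation, per the labels' protocols. Alignment by HISAT2 to build ARS-UCD1.2 is named per the submitters' processing notes. No source used here names the counter, its strand setting, the annotation or the tool of the comparison. The table holds, per the file headers, deposited raw counts and deposited FPKM values per library, a deposited normalized signal (mean scaled count per breed), and the log2 fold changes with raw and adjusted p-values of the authors' comparison. It has 2040 genes and 1 blank row. Column names matched the titles, and 0 per-sample columns were unused.

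The authors' size factors, solved from their group means (largest relative residual 1.56e-09), scaled the counts. They were 1.17, 0.801 and 1.02 in Angus and 0.951, 1.09 and 1.03 in Chinese Simmental. edgeR 4.0.16 (R 4.3.3; filterByExpr, minimum count 10) was fitted with breed as the only term over the whole table, and p-values were adjusted over all 1989 genes tested. Alternatives used TMM, RLE and upper quartile factors, library totals from counts over FPKM, DESeq2 1.42.0, no filter, limma 3.58.1 on log2(FPKM + 1) and log2(FPKM + 0.1), a replicate block, and leaving out each library. Ratios within libraries were tested with exact permutation tests (scipy 1.17.1). The code was tested on simulated data. The members and 16 gene lists were chosen with earlier results of these data known. Genes named are the 4 factors, CD79A, CD79B and MS4A1, the 4 smallest p-values of each list, and the 3 nearest genes of each factor. The rule bounds which genes may be named, not all of them are described, and an item is not reported here. POU2F2, IRF4, CIITA, CD24, IL3RA and the genes compared with SPIB and PAX5 by ratio were named after their values were seen.

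Same-numbered libraries of the breeds deviated from their group means together (correlations 0.35, 0.24 and 0.30 over genes), so the numbers may pair them, although Angus replicate 3 correlated as well with Chinese Simmental replicate 2 (0.31). The labels give no reason for it. Replicate libraries differed by far more than counting noise. Antisense and paralog reads could not be told apart where the counting is not stated.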

Additional observations from a re-analysis of the deposited data

How the results depend on the processing

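The submitters had selected all 4 factors on this contrast in the same libraries, so a kept call is not independent evidence. PAX5, EBF1, SPIB and POU2AF1 kept their direction and their call under all 15 alternatives each, with log2 fold changes of 1.77 to 3.25, 1.88 to 3.29, 2.07 to 3.55 and 1.38 to 2.81. Without 1 library they ranged from 1.82 to 2.12, 1.88 to 2.24, 2.13 to 2.44 and 1.38 to 1.57. With the replicate block they were 2.002, 2.05, 2.26 and 1.47; of the genes named by rule the block ended the call for NCR1 alone (-1.10), and over all tested genes it ended 51 calls and added 1. TMM, RLE and upper quartile factors over the listed genes moved all fold changes toward Angus by a median of 1.35, 1.35 and 1.32. A shift in that direction could hardly end a call toward Angus. The genes called higher in Chinese Simmental became 261, 274 and 289 (from 1492), and the B lineage regulators among them 0, 0 and 1 (from 3). In the same order TLE3 turned to 0.18, 0.19 and 0.15, NOTCH1 to 0.25, 0.24 and 0.21, PRF1 to 0.17, 0.19 and 0.14 and NCR1 to 0.19, 0.22 and 0.17. Without 1 library, 291 to 466 genes were called higher in Angus (from 495; 291 without Angus replicate 2) and 2 to 5 B lineage regulators. Small ratio differences changed sign. PAX5 to the surface genes (-0.07) became 0.23 with CD79A alone, 0.017 with MS4A1 alone and -0.137 to 0.0296 without 1 library, and PAX5 to EBF1 (-0.05) became -0.104 to 0.0478 without 1 library. EBF1 to the surface genes (-0.02) became 0.28 with CD79A alone, 0.0641 with MS4A1 alone, 0.0398 in FPKM and -0.0838 to 0.0837 without 1 library. SPIB (0.19) became -0.195 with CD79B alone and 0.0589 to 0.29 without 1 library. POU2AF1 to the surface genes was -0.30 with CD79A alone, where the breeds overlapped, and -0.82 to -0.41 without 1 library. Without 1 library PAX5 and EBF1 to SPIB were -0.38 to -0.11 and -0.32 to -0.14, and PAX5, EBF1 and SPIB to POU2AF1 were 0.32 to 0.69, 0.40 to 0.79 and 0.68 to 0.97. With 3 libraries a breed and a table of selected genes, the full depth and any gene outside the table limit what can be said.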
